A study of Homo sapiens with 9 samples.

Results

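The genes that remove damaged or mispaired bases from DNA were followed in A549, a human lung cancer cell line, after depletion of Cyclin K. The set had 46 members, named by their part in mismatch repair, nucleotide excision repair (NER), base excision and single-strand break repair, or direct reversal of base damage, and a gene was counted as a member where its symbol stood in the deposited tables. A row was found for 43 of the 46, among 31080 reference genes in all, and all 43 passed the filter on low values that left 21048 genes. MSH3, GTF2H4 and XRCC1 were not analysed here.

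Cells were transfected for 48 h with a scrambled siRNA (siCtrl) or with either of 2 siRNAs against the Cyclin K mRNA (siCyclinK#1 and siCyclinK#2), and total RNA of 3 libraries per group was sequenced, 9 libraries in all. All groups were the same unmodified line, and the controls also carried an siRNA. The design text calls the samples of a group independent, so that p-values measure the spread between cultures of 1 cell line. Values are FPKM, a fragment count corrected for gene length and library depth, and each change below is on the log2(FPKM + 0.1) scale with its standard error (SE), from a limma fit over all 21048 genes with Benjamini-Hochberg adjustment. A gene was called at an adjusted p under 0.05. The scale understates the change of genes with low FPKM.

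Each excision pathway cuts the faulty stretch out of 1 strand, fills the gap from the intact strand and seals it. In NER a recognition complex finds bulky damage, the helicases of TFIIH open the helix and a pair of nucleases cut on either side, while base excision repair starts with a glycosylase that removes a single base and mismatch repair acts on errors of replication. Cyclin K is the partner of the kinases CDK12 and CDK13, which phosphorylate RNA polymerase II and are known for keeping up the expression of many DNA damage response genes, and the study asked what Cyclin K does in lung cancer cells.

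CCNK, which encodes Cyclin K, checked the labels of siCtrl against those of the siRNAs. It fell alike with both siRNAs, so it cannot tell siCyclinK#1 libraries from siCyclinK#2 libraries. It had an FPKM of 7.02 ± 0.107 (SD, n = 3) in siCtrl, 0.809 ± 0.0857 with siCyclinK#1 and 0.844 ± 0.0661 with siCyclinK#2, a change of -2.97 ± 0.0968 and -2.92 ± 0.0968 (SE). The depth of the libraries, worked out from the steps between low values, ranged from 31283260 to 33713340 reads. Of the markers of A549, KRT8 and KRT18 and 4 abundant enzyme genes (AKR1B10, AKR1C1, ALDH1A1 and NQO1) were high in all libraries, while EPCAM and KRT19 lay between 0 and 0.279 and CDH1 between 1.19 and 4.60. These markers were not constant. With siCyclinK#1 and siCyclinK#2 in turn, AKR1B10 changed by -1.20 and -0.81, KRT8 by 0.78 and 0.83, and KRT18 by -0.17 and 0.12. AKR1C1 changed by -0.12 and 0.37, ALDH1A1 by 0.59 and 0.74, NQO1 by 0.66 and 0.48, and CDH1 by 1.17 and 0.02. PTPRC, PECAM1, VWF and CDH5, which define immune and endothelial cells, stayed at or under 0.043. The other markers of these lists with a row were higher. ITGAM lay between 0.675 and 2.55, CD14 between 0.573 and 1.02 and KDR between 0.0292 and 0.254. With siCyclinK#1 ITGAM changed by 1.36 (limma, adjusted p = 0.000286) and CD14 by -0.56 (0.0359). The summed FPKM of the 3 immune markers with a row was 1.54 to 1.83 in siCtrl, 2.34 to 3.14 with siCyclinK#1 and 1.40 to 1.70 with siCyclinK#2, and that of 4 endothelial markers was 0.0535 to 0.275 over all libraries. The summed FPKM of 5 fibroblast markers was 5.58 to 6.37 in siCtrl, 19.9 to 21.99 with siCyclinK#1 and 7.66 to 7.90 with siCyclinK#2. The largest part was PDGFRA in siCtrl (mean 3.52) and with siCyclinK#2 (4.22), and COL1A1 with siCyclinK#1 (14.0, from 2.03 in siCtrl). With siCyclinK#1 LUM rose from 0.356 to 2.28 and PDGFRA to 4.64. COL3A1, which defines those cells too, reached at most 0.0227, and DCN at most 0.0919. The part of these markers in the results was not tested. In bulk RNA, fewer cells of a kind and less RNA per cell cannot be told apart.

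With siCyclinK#1, 27 of the 43 repair genes were called, 11 higher and 16 lower, against 44.8% of all genes tested (26.8% higher and 18.1% lower). With siCyclinK#2, 24 were called, 10 higher and 14 lower, against 34.9% (19.8% higher and 15.2% lower). Most repair genes were well expressed, and such genes were called more often. Among the 40 members that averaged 1 FPKM or more, 60.0% were called with siCyclinK#1 (10 higher, 14 lower) and 55.0% with siCyclinK#2 (10 higher, 12 lower). Among all 11243 such genes 64.3% were called with siCyclinK#1 (4106 higher, 3120 lower) and 53.5% with siCyclinK#2 (3493 higher, 2524 lower). The share of repair genes called was therefore close to that of all genes at 1 FPKM or more with either siRNA. These genes were not matched further to the members by abundance. The median change of the 43 members was -0.07 with siCyclinK#1 and -0.08 with siCyclinK#2, beside 0.10 and 0.01 for all genes. Median-ratio rescaling took the median of all genes with siCyclinK#1 from 0.102 to 0.000894, so changes with this siRNA stand 0.102 higher than changes relative to the median gene. After that rescaling 10 members were higher and 20 lower with siCyclinK#1, and 6 higher and 16 lower with siCyclinK#2, while of all genes at 1 FPKM or more 29.9% were higher and 34.3% lower with siCyclinK#1, and 27.7% and 25.7% with siCyclinK#2. Quantile normalization gave 10 and 19 members with siCyclinK#1 (31.4% and 32.3% of those genes) and 5 and 18 with siCyclinK#2 (26.4% and 26.7%). With all libraries of both siRNAs set against siCtrl (6 against 3), 17 members were called, 5 higher and 12 lower, against 28.6% of all genes (17.0% higher and 11.5% lower), and at 1 FPKM or more the share was 37.5% of members beside 42.0% of genes. A fold change over 3 with an unadjusted p under 0.01, the thresholds of the study's methods, was passed by 0 members with siCyclinK#1, with siCyclinK#2 or with both together, and by 4.67%, 1.94% and 2.29% of all genes. Past a fold of 1.5 as well as the adjusted p were 12 members with siCyclinK#1 (background 27.6%), 9 with siCyclinK#2 (background 17.6%) and 8 with both together (background 18.0%). At 1 FPKM or more these were 10, 8 and 7 of the 40 members, beside 3713, 2473 and 2547 of the 11243 genes.

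**Figure D1:**
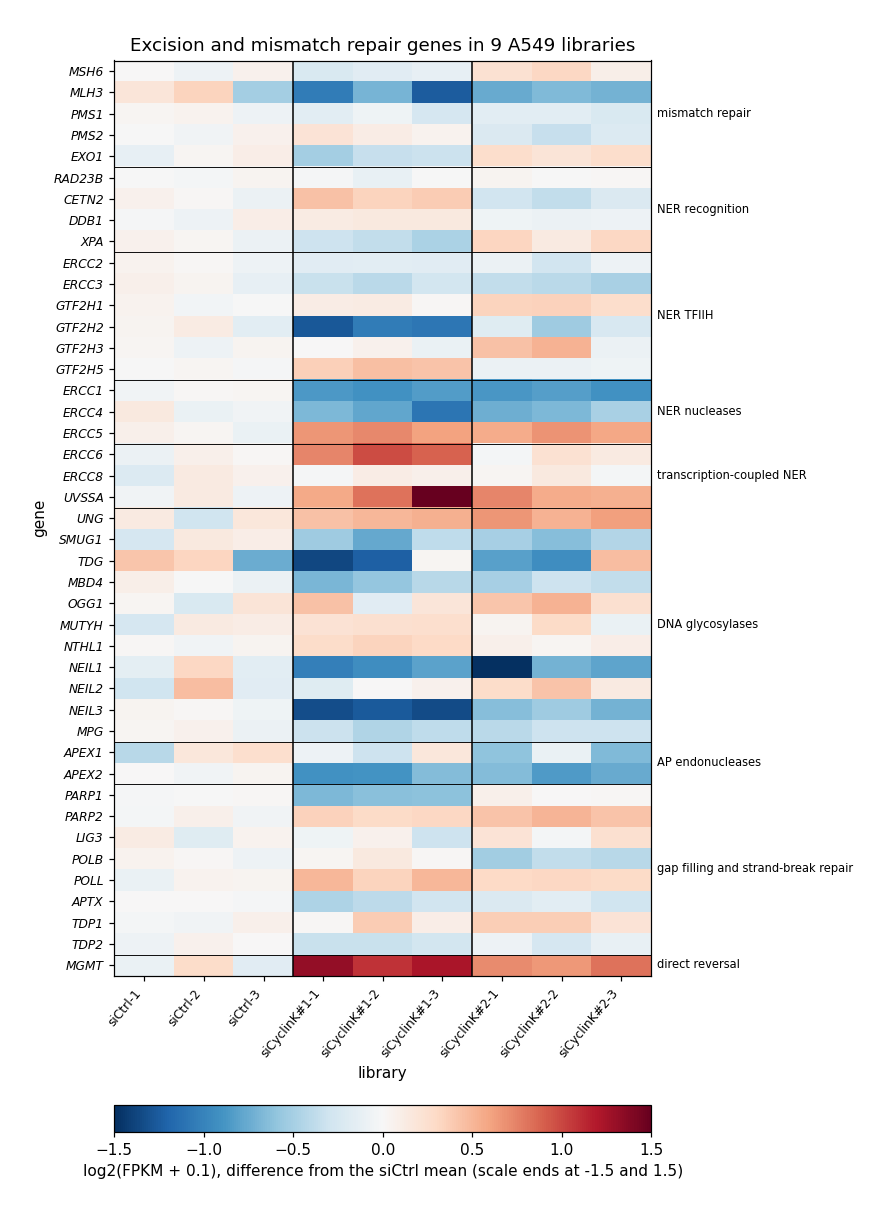
Heat map of the 43 repair genes (rows, in order of pathway role) in the 9 libraries (columns, 3 per group). Color is log2(FPKM + 0.1) minus the mean of the siCtrl libraries, and the scale ends at -1.5 and 1.5. The rows of ERCC1, ERCC4, APEX2 and NEIL3 are blue in all 6 siCyclinK libraries and those of MGMT, ERCC5 and UNG red, while EXO1, XPA and CETN2 take opposite colors with the 2 siRNAs and TDG is mixed within each group.

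The nucleases of NER changed with both siRNAs. ERCC1 and ERCC4, which together form the endonuclease that cuts on one side of the damage, fell, and ERCC5, the endonuclease that cuts on the other side, rose. ERCC1 (ENSG00000012061, chr19:45407333-45478828 of GRCh38, minus strand) had an FPKM of 19.4, 20.5 and 20.5 in siCtrl, 11.1, 10.6 and 11.2 with siCyclinK#1 and 10.98, 11.3 and 10.7 with siCyclinK#2. Every library of either siRNA lay far below every siCtrl library, and the libraries of the 2 siRNAs overlapped. The change was -0.87 ± 0.0428 with each of them (limma, adjusted p = 6.99e-07 and 1.43e-06), and the difference between the siRNAs had a 95% interval from -0.10 to 0.10.

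ERCC4 (ENSG00000175595, chr16:13920157-13952345, plus strand) had an FPKM of 3.45, 2.91 and 3.01 in siCtrl, 1.91, 1.78 and 1.40 with siCyclinK#1 and 1.83, 1.91 and 2.20 with siCyclinK#2. It was lower in all 6 siCyclinK libraries, by -0.85 ± 0.130 (limma, adjusted p = 0.000678) and -0.63 ± 0.130 (0.00514). ERCC5 (ENSG00000134899, chr13:102807146-102876001, plus strand) had an FPKM of 2.54, 2.47 and 2.24 in siCtrl, 3.88, 4.03 and 3.73 with siCyclinK#1 and 3.60, 3.90 and 3.65 with siCyclinK#2. All 6 siCyclinK libraries were higher, by 0.66 ± 0.0713 and 0.60 ± 0.0713 (limma, adjusted p = 7.65e-05 and 0.000213). For each of these 3 nuclease genes the exact two-sided permutation test of 6 against 3 libraries gave p = 0.0119, the smallest it can give. Other members reached the same value, among them ERCC2, which was not called with either siRNA, so it is not particular to these 3. The share of all genes that reach this value was not worked out. An exon of ERCC1 overlaps CD3EAP and an exon of ERCC4 overlaps AC010401.1 on the other strand, and exons of ERCC5 are shared with BIVM-ERCC5, so reads of these genes cannot be told apart where strand and overlap were not resolved.

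Genes of the earlier steps of NER were called in both directions. Of the 4 recognition and verification genes, 3 were called with siCyclinK#1 (2 higher, 1 lower) and 2 with siCyclinK#2 (1 higher, 1 lower), and of 6 TFIIH subunits 3 (1 higher, 2 lower) and 2 (1 higher, 1 lower), beside 64.3% and 53.5% of all genes at 1 FPKM or more. XPA (ENSG00000136936, chr9:97674909-97697357, minus strand), the scaffold that checks the opened damage, had an FPKM of 7.87, 7.73 and 7.06 in siCtrl, 6.05, 5.83 and 5.40 with siCyclinK#1 and 9.45, 8.31 and 9.42 with siCyclinK#2. It was below every siCtrl library with one siRNA and above every one with the other. The changes were -0.39 ± 0.0728 (limma, adjusted p = 0.00232) and 0.26 ± 0.0728 (0.0232), and the rise with siCyclinK#2 lost its call without siCtrl replicate 3 (adjusted p = 0.0785), without siCyclinK#2 replicate 1 (0.076) or 3 (0.0759), and under median-ratio rescaling (0.0509) or quantile normalization (0.0931).

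CETN2 (ENSG00000147400, chrX:152826973-152830777, minus strand), a centrin in the complex that first recognizes damage, went the other way. Its FPKM was 23.4, 22.6 and 20.9 in siCtrl, 30.1, 28.0 and 29.05 with siCyclinK#1 and 18.3, 17.3 and 19.2 with siCyclinK#2. The groups did not overlap, and the changes were 0.38 ± 0.0563 (limma, adjusted p = 0.000545) and -0.29 ± 0.0563 (0.0039). RAD23B, its partner in that complex, was the most abundant member by FPKM, with means of 66.0, 64.0 and 66.8, and was not called, though under median-ratio rescaling it was called lower with siCyclinK#1 (-0.16, limma, adjusted p = 0.00926). DDB1, the adaptor of the ubiquitin ligase that binds ultraviolet damage, rose by 0.14 with siCyclinK#1 and was at -0.08, not called, with siCyclinK#2. That rise was 0.02 (limma, adjusted p = 0.771) under median-ratio rescaling, and its call was lost under eBayes without trend (0.108), where loci lacking a reference gene were tested too (0.056), and without siCtrl replicate 1 (0.0976) or 2 (0.112), siCyclinK#1 replicate 1 (0.0654), 2 (0.0843) or 3 (0.0872), or siCyclinK#2 replicate 2 (0.0504) or 3 (0.0519).

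GTF2H2 (ENSG00000145736, chr5:71032670-71067689, minus strand), a core subunit of TFIIH, had the largest fall of the NER genes with siCyclinK#1. Its FPKM was 2.82, 3.01 and 2.44 in siCtrl, 1.08, 1.28 and 1.25 with siCyclinK#1 and 2.42, 1.87 and 2.30 with siCyclinK#2. With siCyclinK#1 it stood clear of both other groups, at a change of -1.13 ± 0.125 (limma, adjusted p = 9.11e-05), and with siCyclinK#2 at -0.32 ± 0.125 (0.0845) it was not called, except under quantile normalization (0.0421). GTF2H2 has near-identical copies in the genome, and the deposited rows of 2 of them, GTF2H2B and GTF2H2C, had changes of -1.32 and -1.27 with siCyclinK#1 and -0.47 and -0.42 with siCyclinK#2, so the values of the 3 genes are uncertain as to which copy they came from. ERCC3, a helicase of TFIIH, fell by 0.34 and 0.42 on the log2 scale, while the other helicase, ERCC2, was at -0.16 and -0.15 and was not called, though under quantile normalization it was (limma, adjusted p = 0.0125 and 0.0323), and with siCyclinK#1 under median-ratio rescaling too (0.00964). Without siCyclinK#2 replicate 2 ERCC2 was called lower with siCyclinK#1 as well (limma, adjusted p = 0.0337). GTF2H5 rose with siCyclinK#1 (0.41) and GTF2H1 with siCyclinK#2 (0.32). GTF2H3 shares its row with another gene and, at -0.01 and 0.29, was not called, but without siCyclinK#2 replicate 3 its change with siCyclinK#2 was 0.48 and was called (limma, adjusted p = 0.0016).

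Transcription-coupled NER starts where RNA polymerase stalls at damage. ERCC6 (ENSG00000225830, chr10:49455368-49539538, minus strand), the remodeler that binds the stalled polymerase, had an FPKM of 0.744, 0.843 and 0.804 in siCtrl, 1.39, 1.66 and 1.56 with siCyclinK#1 and 0.776, 0.949 and 0.887 with siCyclinK#2. It rose with siCyclinK#1 (0.86 ± 0.119, limma, adjusted p = 0.000348), and with siCyclinK#2 its libraries overlapped those of siCtrl (0.11 ± 0.119, 0.526). UVSSA (ENSG00000163945, chr4:1347266-1395992, plus strand), which stabilizes ERCC6 at the polymerase, had an FPKM of 0.381, 0.450 and 0.375 in siCtrl, 0.640, 0.781 and 2.04 with siCyclinK#1 and 0.732, 0.636 and 0.625 with siCyclinK#2. All 6 siCyclinK libraries were above siCtrl, and siCyclinK#1 replicate 3 stood apart from the rest. The change was 1.16 ± 0.350 (limma, adjusted p = 0.0249) and 0.61 ± 0.350 (0.227), and the call with siCyclinK#1 was lost without siCtrl replicate 1 (0.0647) or 3 (0.0655) and under quantile normalization (0.0553), while without siCyclinK#1 replicate 3 the change was 0.69 with siCyclinK#1 (0.0127) and that with siCyclinK#2 was called (0.0162). ERCC8, the third gene of this branch, lay at 0.06 and 0.05 and was not called.

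**Figure D2:**
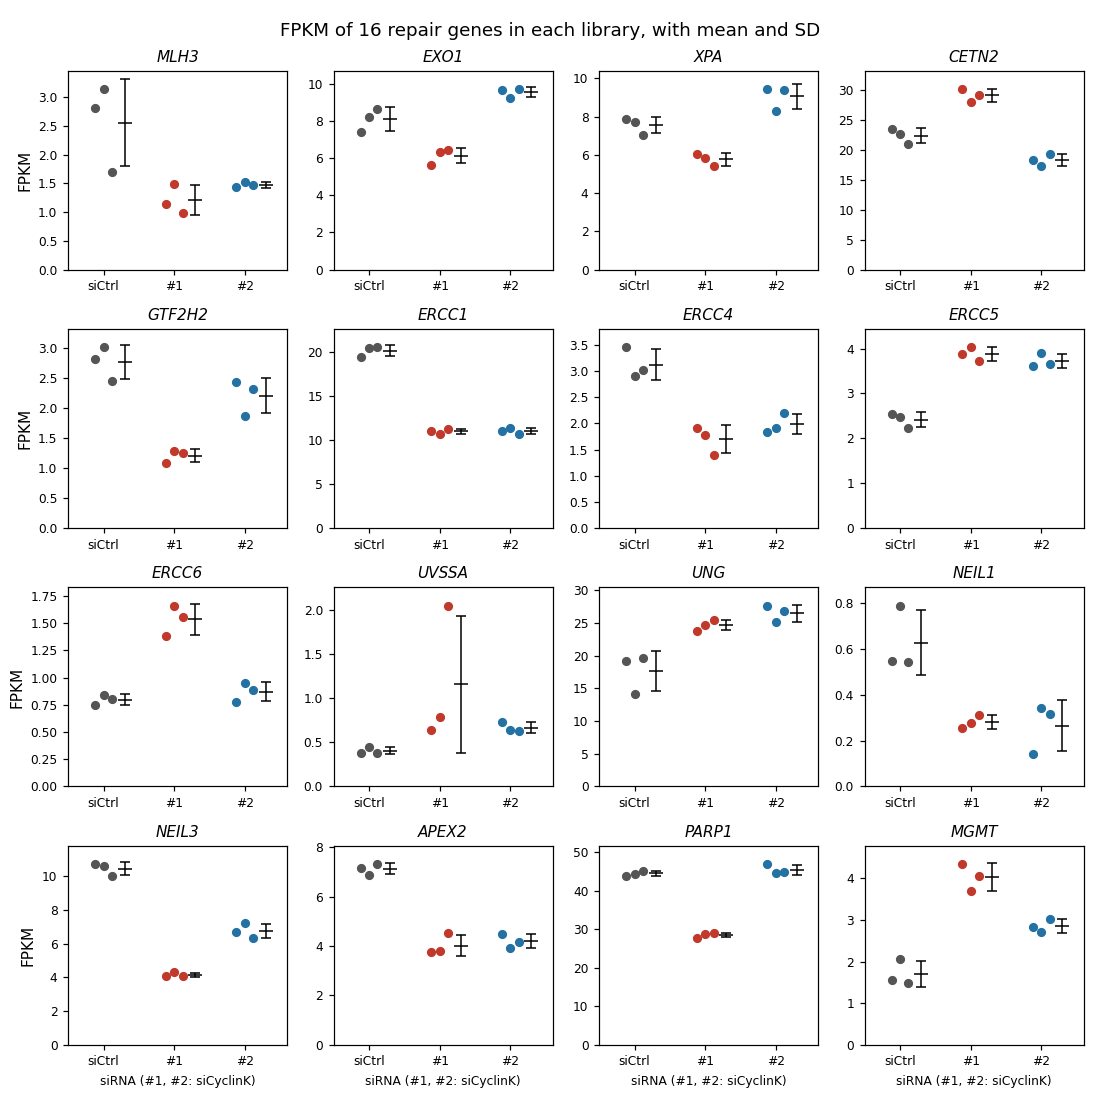
FPKM of 16 repair genes (1 panel each, axis from 0) in siCtrl, siCyclinK#1 (#1) and siCyclinK#2 (#2). Points are libraries, 3 per group, and the black mark with bars is the mean with its SD. ERCC1 averages 10.97 and 10.99 FPKM with the siRNAs against 20.1 in siCtrl, PARP1 is lower with siCyclinK#1 while its siCyclinK#2 points overlap siCtrl, and 1 library of siCyclinK#1 lifts the mean of UVSSA.

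Of the 11 DNA glycosylases, 7 were called with siCyclinK#1 (2 higher, 5 lower) and 6 with siCyclinK#2 (1 higher, 5 lower), beside 44.8% and 34.9% of all genes and 64.3% and 53.5% of those at 1 FPKM or more. The comparisons share the siCtrl libraries. SMUG1 and MBD4, which act on uracil or thymine in DNA, fell by 0.56 and 0.56 with siCyclinK#1 and by 0.52 and 0.39 with siCyclinK#2 on the log2 scale, and MPG, which removes alkylated bases, fell by 0.39 and 0.34. The calls of SMUG1 were lost without siCtrl replicate 2 (limma, adjusted p = 0.062 and 0.0968) or 3 (0.0594 and 0.0919), the first without siCyclinK#1 replicate 2 (0.0589) and the second without siCyclinK#2 replicate 1 (0.0643) or 2 (0.09), with no filter on low values (0.0587) or with loci lacking a reference gene tested too (0.0583). NEIL1 and NEIL3, which remove oxidized bases, fell too. NEIL3 (ENSG00000109674, chr4:177309836-177362943, plus strand), a glycosylase of proliferating cells, had an FPKM of 10.7, 10.6 and 9.999 in siCtrl, 4.08, 4.29 and 4.06 with siCyclinK#1 and 6.68, 7.19 and 6.36 with siCyclinK#2. The 3 groups were fully apart, and the falls were -1.31 ± 0.0591 (limma, adjusted p = 4.36e-07) and -0.62 ± 0.0591 (5.71e-05), the first of them the largest fall among the 43 members with siCyclinK#1.

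NEIL1 (ENSG00000140398, chr15:75346955-75357114, plus strand) was near the low end of the range, with 0.550, 0.790 and 0.546 in siCtrl, 0.254, 0.278 and 0.314 with siCyclinK#1 and 0.140, 0.341 and 0.317 with siCyclinK#2. It was lower in all 6 siCyclinK libraries, by -0.92 ± 0.264 (limma, adjusted p = 0.0202) and -1.03 ± 0.264 (0.0153). Without siCtrl replicate 2, its highest library, neither call held (0.0725 and 0.0573), and the first was also lost without siCyclinK#1 replicate 1 (0.0585) or 2 (0.0506). Its exons overlap those of MAN2C1 on the other strand.

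UNG (ENSG00000076248, chr12:109097574-109110992, plus strand), the main uracil glycosylase, rose. Its FPKM was 19.2, 14.1 and 19.6 in siCtrl, 23.8, 24.7 and 25.4 with siCyclinK#1 and 27.7, 25.1 and 26.8 with siCyclinK#2. All 6 siCyclinK libraries were above siCtrl, of which replicate 2 was lowest, and the changes were 0.49 ± 0.113 and 0.60 ± 0.113 (limma, adjusted p = 0.00674 and 0.00328). NTHL1, which removes oxidized pyrimidines, rose by 0.30 with siCyclinK#1. TDG, a thymine glycosylase, varied too much within the groups to be called. Its FPKM was 14.2, 13.3 and 6.24 in siCtrl, 4.03, 4.47 and 10.7 with siCyclinK#1 and 5.93, 5.496 and 14.5 with siCyclinK#2. In each group 1 library, replicate 3, lay far from the other 2, and with a pooled SD of 0.731 on the log2 scale TDG was the most variable member, where the median member had 0.0904. OGG1 and MUTYH, which deal with 8-oxoguanine, and NEIL2 were not called either, with changes between -0.03 and 0.39. Without siCtrl replicate 2 the change of NEIL2 with siCyclinK#2 went from 0.28 to 0.51 and was called (limma, adjusted p = 0.0121).

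After the glycosylase, an AP endonuclease cuts at the empty site. APEX1, the main enzyme of this step, had means of 29.5, 27.7 and 21.4 and was not called, at -0.07 ± 0.214 and -0.45 ± 0.214. Without siCtrl replicate 1 it was called lower with siCyclinK#2 (-0.66, limma, adjusted p = 0.0315). APEX2 (ENSG00000169188, chrX:55000357-55009057, plus strand), its relative, had an FPKM of 7.17, 6.90 and 7.33 in siCtrl, 3.76, 3.78 and 4.51 with siCyclinK#1 and 4.50, 3.91 and 4.17 with siCyclinK#2. Every siCyclinK library was lower, by -0.82 ± 0.0841 and -0.75 ± 0.0841 (limma, adjusted p = 5.83e-05 and 0.000151). An exon of APEX2 overlaps ALAS2 on the other strand.

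Of the 8 genes of break sensing, gap filling and ligation, 5 were called with each siRNA, 2 higher and 3 lower with siCyclinK#1 and 3 higher and 2 lower with siCyclinK#2, beside 64.3% and 53.5% of all genes at 1 FPKM or more. PARP1 (ENSG00000143799, chr1:226360691-226408079, minus strand), the main sensor of single-strand breaks, had an FPKM of 43.8, 44.4 and 45.1 in siCtrl, 27.8, 28.7 and 28.9 with siCyclinK#1 and 46.9, 44.5 and 44.9 with siCyclinK#2. With siCyclinK#1 all libraries were lower than in both other groups, which overlapped. The change was -0.64 ± 0.0329 (limma, adjusted p = 8.67e-07) with siCyclinK#1, and with siCyclinK#2 it was 0.03 with a 95% interval from -0.04 to 0.11. PARP2, the second sensor, rose by 0.32 and 0.45. POLL, a gap-filling polymerase, rose by 0.44 and 0.30, and POLB, the main gap-filling polymerase, was at 0.06 with siCyclinK#1 and fell by 0.44 on the log2 scale with siCyclinK#2. APTX, which cleans failed ligation ends, fell by 0.38 and 0.22. Of the enzymes that free DNA from trapped topoisomerases, TDP2 fell by 0.32 with siCyclinK#1 and was at -0.15, not called, with siCyclinK#2, where median-ratio rescaling (limma, adjusted p = 0.0223), quantile normalization (0.0212), a filter at a mean of 1 FPKM (0.0473) or leaving out siCtrl replicate 1 (0.0445) called it lower. TDP1 was at 0.17, not called, with siCyclinK#1 and rose by 0.32 with siCyclinK#2. LIG3, the ligase of this pathway, was not called. Of the calls with siCyclinK#2, that of TDP1 was lost without any 1 of the siCtrl libraries (limma, adjusted p = 0.0915, 0.0997 and 0.0517) and without siCyclinK#2 replicate 1 (0.102) or 2 (0.103), under median-ratio rescaling (0.0621), quantile normalization (0.149) or eBayes without trend (0.0569), with no filter on low values (0.0514) and where loci lacking a reference gene were tested too (0.0515), that of POLL without siCtrl replicate 1 (0.0602) or siCyclinK#2 replicate 2 (0.0513) and under quantile normalization (0.0783), and that of APTX without siCtrl replicate 1 (0.0521) or 2 (0.0502) or siCyclinK#2 replicate 3 (0.062).

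MGMT (ENSG00000170430, chr10:129467184-129768007, plus strand), which takes alkyl groups off guanine without any excision, had the largest rise of the 43 members with either siRNA on the log2(FPKM + 0.1) scale, while by the ratio of mean FPKM with siCyclinK#1 that of UVSSA, with its 1 high library, was larger (0.402 to 1.16). Its FPKM was 1.57, 2.06 and 1.49 in siCtrl, 4.35, 3.70 and 4.07 with siCyclinK#1 and 2.83, 2.71 and 3.04 with siCyclinK#2. The 3 groups did not overlap. The rise was 1.21 ± 0.123 (limma, adjusted p = 5.39e-05), or 2.31-fold, with siCyclinK#1 and 0.73 ± 0.123 (0.00175), or 1.65-fold, with siCyclinK#2. In order of the siCtrl level MGMT stood low among the members, which had a median of 6.42 FPKM and ranged from 0.402 for UVSSA to 66.0 for RAD23B.

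Of the 5 mismatch repair genes with a row, 2 were called with siCyclinK#1 (both lower) and 4 with siCyclinK#2 (2 higher, 2 lower), beside 64.3% and 53.5% of all genes at 1 FPKM or more. MLH3 (ENSG00000119684, chr14:75013764-75051532, minus strand), a partner in one of the complexes that nick the mispaired strand, had an FPKM of 2.82, 3.14 and 1.70 in siCtrl, 1.15, 1.49 and 0.980 with siCyclinK#1 and 1.43, 1.53 and 1.47 with siCyclinK#2. All siCyclinK libraries were below siCtrl, of which replicate 3 came close to them. The change was -0.998 ± 0.224 (limma, adjusted p = 0.00594) and -0.71 ± 0.224 (0.0383). The second call was lost without siCtrl replicate 1 (0.115) or 2 (0.122), without siCyclinK#1 replicate 1 (0.0526) and without siCyclinK#2 replicate 1 (0.0938), 2 (0.0769) or 3 (0.0856), and also with no filter on low values (0.0579), eBayes without trend (0.0551) or loci without a reference gene included (0.0511).

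EXO1 (ENSG00000174371, chr1:241847967-241895148, plus strand), the exonuclease that removes the strand with the error, had an FPKM of 7.37, 8.20 and 8.65 in siCtrl, 5.65, 6.32 and 6.43 with siCyclinK#1 and 9.66, 9.25 and 9.72 with siCyclinK#2. It was below siCtrl with one siRNA and above it with the other, at -0.39 ± 0.0728 (limma, adjusted p = 0.00216) and 0.24 ± 0.0728 (0.0315). The rise with siCyclinK#2 was lost without siCtrl replicate 1 (0.0947) or 2 (0.0607), without siCyclinK#2 replicate 1 (0.0819), 2 (0.0506) or 3 (0.086), and under median-ratio rescaling (0.072), quantile normalization (0.148) or eBayes without trend (0.0605). MSH6, which recognizes mispaired bases, was at -0.17 with siCyclinK#1, where it was not called, and rose by 0.21 with siCyclinK#2. This rise was lost without siCtrl replicate 1 (limma, adjusted p = 0.0689) or 2 (0.1), siCyclinK#2 replicate 1 (0.0843) or 2 (0.0992), and under median-ratio rescaling (0.0899), quantile normalization (0.0909) or eBayes without trend (0.0722). With siCyclinK#1 MSH6 was called lower under median-ratio rescaling (-0.29, limma, adjusted p = 0.00593), quantile normalization (-0.20, 0.0281) or a filter at a mean of 1 FPKM (0.0388), and without siCtrl replicate 2 (0.043) or siCyclinK#2 replicate 2 (0.0429) or 3 (0.0278). PMS2, an endonuclease of this pathway, was at 0.12, not called, and fell by 0.26 on the log2 scale. PMS2 has a near-identical copy, PMS2CL, whose row, shared with RSPH10B2, had changes of -0.07 and -0.34 and was not called. PMS1 was at -0.16 and -0.18 and was not called, but was lower under median-ratio rescaling (limma, adjusted p = 0.00645 and 0.0198) and quantile normalization (0.00624 and 0.0103). It was also called lower with siCyclinK#2 under a filter at a mean of 1 FPKM (0.037). With siCyclinK#1 it was called lower without siCyclinK#1 replicate 2 (0.0455).

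**Figure D3:**
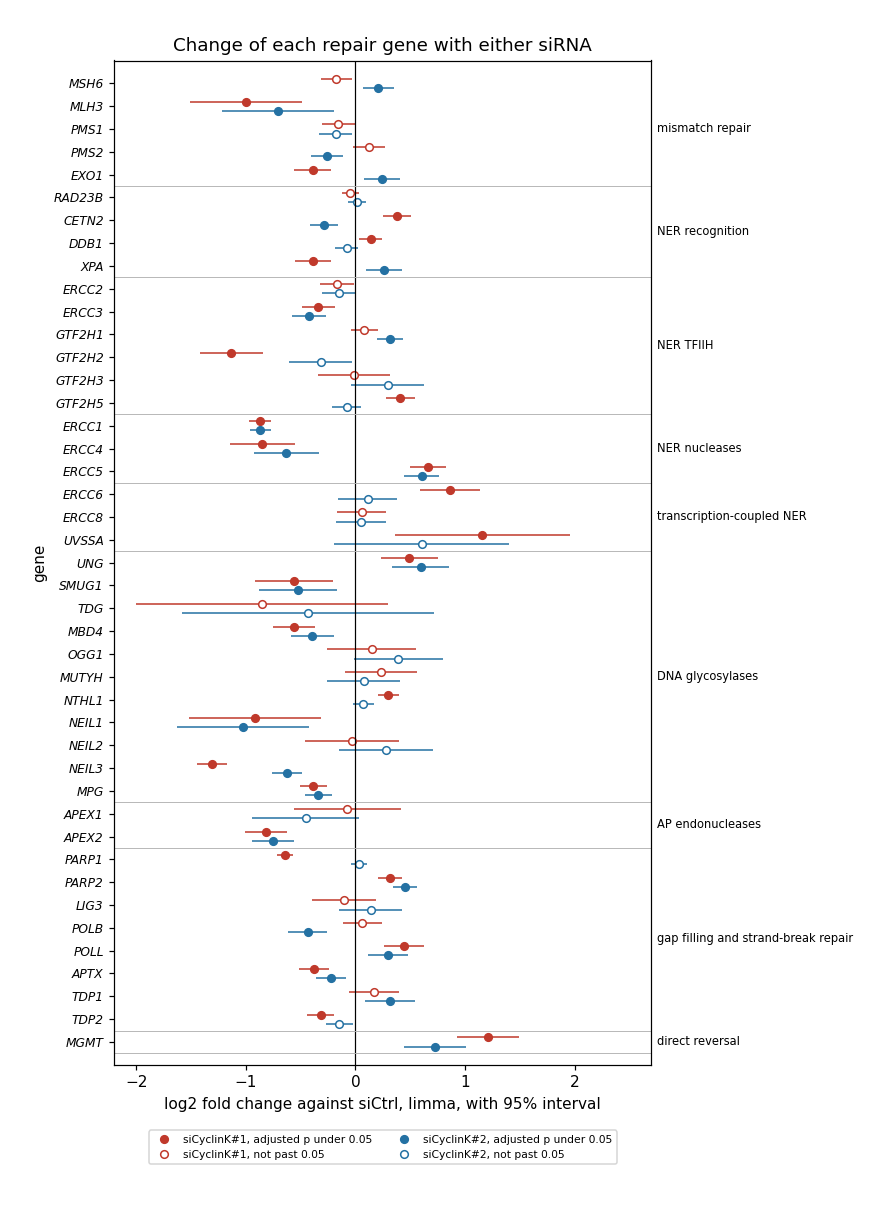
Log2 fold change against siCtrl of each of the 43 repair genes (rows, by role) with siCyclinK#1 (red) and siCyclinK#2 (blue), from limma, with 95% intervals. Filled points passed an adjusted p of 0.05 and open points did not. The intervals of ERCC1 and APEX2 lie side by side, those of NEIL3, PARP1 and GTF2H2 are apart, and those of TDG are the widest.

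The siRNAs were then compared with each other, which shows where the response of a repair gene depended on the siRNA used. Of the 43 members 16 were called between them, 8 higher and 8 lower with siCyclinK#1 (7 and 11 under median-ratio rescaling, where 18.6% and 26.1% of all genes at 1 FPKM or more were), against 29.4% of all genes (17.1% higher and 12.3% lower). At 1 FPKM or more the share was 40.0% of members and 44.5% of genes. Past a fold of 1.5 were 7 members (background 13.2%), and past the thresholds of the methods 0 (background 1.53%). At 1 FPKM or more, 7 of 40 members passed the fold of 1.5, beside 1678 of 11243 genes. Lower with siCyclinK#1 than with siCyclinK#2 were GTF2H2 (-0.82 ± 0.125), NEIL3 (-0.69 ± 0.0591), PARP1 (-0.67 ± 0.0329), XPA (-0.64 ± 0.0728) and EXO1 (-0.63 ± 0.0728), with limma adjusted p-values of 0.00135, 4.93e-05, 2.28e-06, 0.000238 and 0.000267. Higher with siCyclinK#1 were ERCC6 (0.75 ± 0.119, limma, adjusted p = 0.00153) and CETN2 (0.67 ± 0.0563, 4.46e-05). MGMT was higher with siCyclinK#1 too (0.48 ± 0.123, 0.0177), a call lost without siCyclinK#1 replicate 1 (0.0609) or 3 (0.0506) or without siCyclinK#2 replicate 2 (0.0588). For the 3 nuclease genes no difference was called, and its 95% interval ran from -0.52 to 0.08 for ERCC4 and from -0.10 to 0.22 for ERCC5.

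Genes of DNA replication in S phase moved between the siRNAs as well. Of 14 such genes (the MCM2 to MCM7 helicase subunits, CDC6, CDC45, CDT1, GINS1, GINS2, RRM1, RRM2 and TYMS), 12 were called lower with siCyclinK#1 than with siCyclinK#2 and the other 2 were not called, with differences from -1.499 (RRM2) to 0.01 (TYMS). Among all genes at 1 FPKM or more, 20.8% were called lower in this comparison, and 26.1% under median-ratio rescaling. The summed FPKM of the 14 S-phase genes was 430.2 to 447 in siCtrl, 355 to 368 with siCyclinK#1 and 457 to 488 with siCyclinK#2. Their part in the differences of the repair genes between the siRNAs was not tested.

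**Figure D4:**
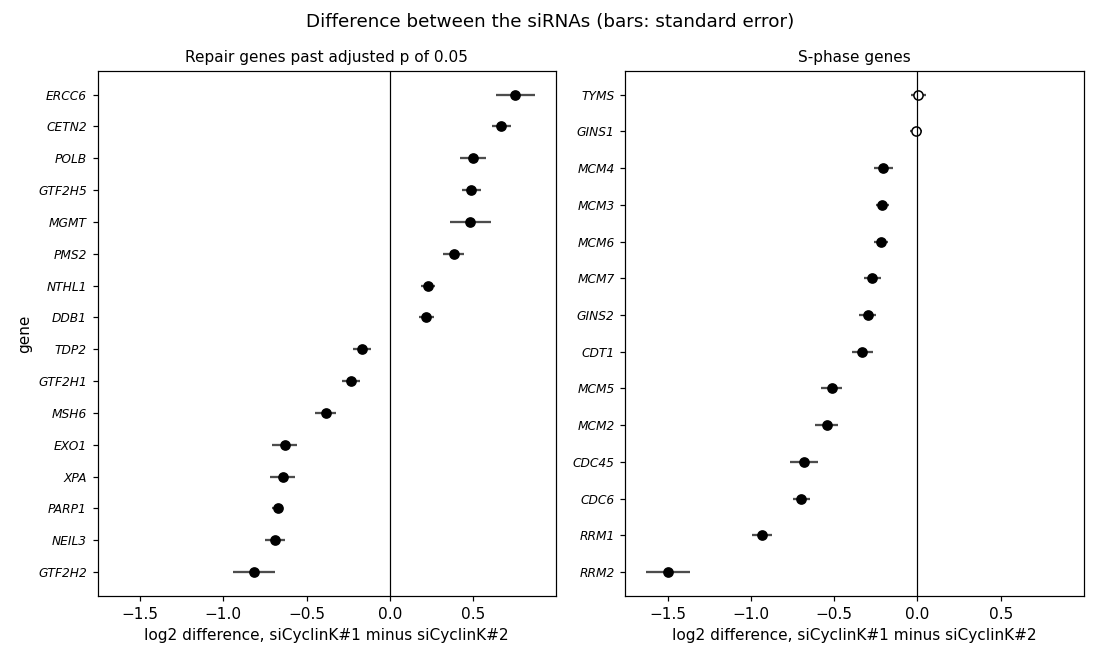
Log2 difference between siCyclinK#1 and siCyclinK#2 (x axis, siCyclinK#1 minus siCyclinK#2, bars are the SE from limma) for the 16 repair genes called between the siRNAs (left) and for the 14 S-phase genes (right, open points not called). The repair genes lie on both sides of 0, from -0.82 for GTF2H2 to 0.75 for ERCC6, and the 12 S-phase genes called all lie below 0.

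The factors that the excision pathways share with replication or with other processes were taken as a separate list of 34, of which 31 had a row. With siCyclinK#1, 10 of them were higher and 11 lower, and with siCyclinK#2, 12 were higher and 8 lower, and their median change was -0.02 and 0.02. That is 67.7% and 64.5% of the 31 called, beside 64.3% and 53.5% of all genes at 1 FPKM or more. USP7, the deubiquitinase that partners with UVSSA, fell by 1.51 on the log2 scale with siCyclinK#1 and by 0.19 with siCyclinK#2. RFC4, a subunit of the clamp loader, fell by 0.97 with siCyclinK#1 and was at -0.07 with siCyclinK#2. CUL4B, a scaffold of the ubiquitin ligase of DDB1, rose by 0.79 and 0.84, and RPA2, a subunit of the protein that coats the single strand, fell by 0.72 and 0.56.

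The promoters of the members were searched for short motifs, among them that of the E2F factors, which drive genes of S phase. RefSeq windows of GRCh38.p14, from 250 bases before to 50 after a transcript start, were found for 43 of the 46 members. An E2F-type motif (TTTCCCGC, TTTCGCGC, TTTGCCGC or TTTGGCGC, on either strand) was in the windows of 5 of them, MSH3, MSH6, PMS2, EXO1 and UNG, and in 3.99% of all 27305 genes. Shown are the windows of the 4 of these genes that were measured, because they share the motif while their RNA did not move alike: between the siRNAs EXO1 and MSH6 were lower with siCyclinK#1, PMS2 was higher, and UNG, at -0.10 with an interval from -0.36 to 0.15, was not called. Capitals mark the motif.
EXO1, chr1:241847954-241848253, plus strand: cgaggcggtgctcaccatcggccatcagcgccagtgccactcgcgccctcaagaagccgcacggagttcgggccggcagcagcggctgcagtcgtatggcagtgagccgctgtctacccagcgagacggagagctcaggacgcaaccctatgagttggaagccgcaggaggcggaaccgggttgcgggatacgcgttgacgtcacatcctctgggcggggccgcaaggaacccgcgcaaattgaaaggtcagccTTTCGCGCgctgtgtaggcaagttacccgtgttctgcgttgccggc
MSH6, chr2:47782895-47783194, plus strand: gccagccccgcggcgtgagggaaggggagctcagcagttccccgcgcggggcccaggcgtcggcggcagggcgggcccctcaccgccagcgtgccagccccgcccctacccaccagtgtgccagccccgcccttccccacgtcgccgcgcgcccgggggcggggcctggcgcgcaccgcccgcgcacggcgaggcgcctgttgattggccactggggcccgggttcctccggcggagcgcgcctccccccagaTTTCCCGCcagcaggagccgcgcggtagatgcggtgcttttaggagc
PMS2, chr7:6009057-6009356, minus strand: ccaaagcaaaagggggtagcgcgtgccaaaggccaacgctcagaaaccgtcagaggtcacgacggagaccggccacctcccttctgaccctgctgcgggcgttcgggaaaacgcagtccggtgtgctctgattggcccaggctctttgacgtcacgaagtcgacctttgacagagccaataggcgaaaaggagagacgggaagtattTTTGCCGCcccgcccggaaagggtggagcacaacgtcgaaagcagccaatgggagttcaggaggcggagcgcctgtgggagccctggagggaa
UNG, chr12:109097922-109098221, plus strand: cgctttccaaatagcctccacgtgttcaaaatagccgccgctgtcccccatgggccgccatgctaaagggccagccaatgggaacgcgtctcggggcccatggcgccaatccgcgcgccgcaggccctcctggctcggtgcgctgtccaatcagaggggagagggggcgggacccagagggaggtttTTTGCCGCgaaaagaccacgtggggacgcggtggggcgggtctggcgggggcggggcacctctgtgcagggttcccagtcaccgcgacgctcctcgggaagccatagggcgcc
The motif began 4 bases after the start in EXO1 and 3 bases after it in MSH6, and 43 and 63 bases before it in PMS2 and UNG. A second window of PMS2, from another transcript start, holds the motif 100 bases before that start and is not shown. A match is only a run of letters and does not show that a factor binds there.

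Other motifs were searched in the same windows on both strands. The GC box GGGCGG was in 36 of 43 (48.3% of all genes), the CCAAT box CCAAT in 23 (39.7%), the E-box CACGTG in 9 (8.77%) and TGACGTCA in 4 (2.25%). The TATA box TATAAA was in 0 of the 43, where 14.0% of all genes had it. The genes also had ordinary lengths. The median span of the 40 members that averaged 1 FPKM or more was 34.2 kb beside 33.9 kb for 10041 such protein-coding genes, and Spearman's rho between span and change was -0.02 with siCyclinK#1 and 0.17 with siCyclinK#2 across these members, beside 0.18 and 0.21 across all. These correlations are across genes of the same libraries, which are not independent replicates.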

How the data were processed

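From paired Illumina HiSeq X reads the authors deposited 1 table of FPKM values a library, estimated with StringTie 1.3.3b. The aligner, annotation release and strand setting are not given in the sources used here. Rows of 1 reference gene were summed (47 genes had more than 1 row), 25125 loci without a reference gene were left out, and genes that reached 0.1 FPKM in 3 or more libraries were tested. Differences were tested with limma 3.58.1 in R 4.3.3 (lmFit, eBayes with trend) on log2(FPKM + 0.1), with Benjamini-Hochberg adjustment: 3 groups in 1 fit for each siRNA and for the siRNAs against each other, and 2 groups for both together. Exact permutation tests used scipy 1.17.1. Tested on simulated data of 21048 genes for siCyclinK#1 against siCtrl, the fit recovered 58 of 100 genes changed 1.5-fold and 82 of 100 changed 2-fold. That simulation changed a far smaller share of genes than the 44.8% called in the data with siCyclinK#1. Its recovery rates are therefore not those of the reported tests. The depth of a library was chosen so that most of its low FPKM values were whole reads. At that depth 99.06% to 99.27% of them were whole within 0.02 read, a share that is no separate check. Positions are GRCh38, identical to GENCODE 29 for 42 of 43 members. Of the 43 rows, 11 were StringTie loci, 3 were shared with another gene and 21 overlapped exons on the other strand.

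Genes were described in full where, in their role, the adjusted p was under 0.05 and the fold over 1.5 against siCtrl or between the siRNAs, or else the largest change. The members, lists and promoter motifs were chosen with earlier results of these data known. Alternatives were other pseudocounts, filters, scalings and thresholds, eBayes without trend, the highest row of a gene, a replicate block, leaving out each library, and, added after seeing the data, testing loci without a reference gene. Some genes of the comparison lists are not reported here. The methods name DMEM as the medium and the labels RPMI-1640.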

Additional observations from a re-analysis of the deposited data

Results flagged for a closer look

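For 16 of the 43 repair genes the response differed between the siRNAs in the limma test of that difference itself. On the log2 scale, siCyclinK#1 minus siCyclinK#2, it was -0.82 for GTF2H2, -0.69 for NEIL3, -0.67 for PARP1, -0.64 for XPA, -0.63 for EXO1, -0.38 for MSH6, -0.23 for GTF2H1 and -0.17 for TDP2. It was 0.22 for DDB1, 0.23 for NTHL1, 0.38 for PMS2, 0.48 for MGMT, 0.49 for GTF2H5, 0.50 for POLB, 0.67 for CETN2 and 0.75 for ERCC6. The difference of TDP2 lost its call without siCtrl replicate 3 (limma, adjusted p = 0.0678), siCyclinK#1 replicate 1 (0.115), 2 (0.122) or 3 (0.0659), or siCyclinK#2 replicate 1 (0.142) or 3 (0.131), under quantile normalization (0.123) or eBayes without trend (0.122), with no filter on low values (0.0673) and where loci lacking a reference gene were tested too (0.0762), and that of DDB1 under median-ratio rescaling (0.0516). Some settings called further members lower with siCyclinK#1. Median-ratio rescaling called PARP2 (limma, adjusted p = 0.0105), APTX (0.0232) and RAD23B (0.0361). PARP2 was also called with a filter at a mean of 1 FPKM (0.0424) or without siCtrl replicate 2 (0.0493). APTX was called without siCyclinK#1 replicate 3 (0.0462), and GTF2H3 without siCyclinK#2 replicate 3 (0.00199). Of all genes tested 29.4% were called in this comparison. Both siRNAs left a like level of CCNK (11.5% and 12.03% of siCtrl). The groups of 3 libraries were too small for a test of single outlying libraries.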

How the results depend on the processing

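The number of repair genes called stayed within 1.5 times its reported value in 76 recomputations and not in the 9 given here. Requiring a fold over 1.5 left 12 genes with siCyclinK#1, 9 with siCyclinK#2, 7 between the siRNAs and 8 with both siRNAs together, and the thresholds of a fold over 3 and an unadjusted p under 0.01 left 0 in all 4 comparisons. For both siRNAs together, the mean of the siRNA groups in the fit of 3 groups called 26 in place of 17, a fit in which the gap between the siRNAs is not part of the spread. Leaving out 1 library at a time gave 25 to 28 genes with siCyclinK#1, 18 to 25 with siCyclinK#2, 14 to 17 between the siRNAs and 12 to 18 for both together. Replicate numbers did not pair the samples (correlations of deviations from -0.0711 to 0.0379), and a fit with a replicate block called 27, 23, 15 and 14 genes. Of the values of the 16 genes described in full and CCNK, 1255 kept direction and call, 35 lost the call, 11 gained it and 0 reversed. Among these genes the losses with siCyclinK#2 were of MLH3, EXO1, XPA and NEIL1. Of the other members, the replicate block ended the calls of MSH6 and TDP1 with siCyclinK#2 (limma, adjusted p = 0.0684 and 0.0552) and of TDP2 between the siRNAs (0.0861), and it called PMS1 with siCyclinK#2 (0.0454). Depth limits genes with few reads such as NEIL1, at an estimated 31.1 to 174.4 reads a library, and the copies of GTF2H2 limit what its value means. UVSSA, also low in FPKM, had an estimated 192.1 to 1061.7 reads a library, and 1 library stood apart. These read estimates use the joined length of all annotated exons of a gene, which can exceed the length of its transcripts. They can therefore be too high, for UVSSA as for NEIL1.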
